A study of Mus musculus with 20 samples.

Results

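Sesn2 and Gadd45b were examined in Hepa1-6 cells, a mouse hepatoma line, while the glutamine supply of the culture changed. Both genes encode inhibitors of growth that stressed cells induce. Members were the probes whose symbol in the platform annotation is Sesn2 or Gadd45b. Each gene had 1 probe, so that 2 of 13406 named genes are described. They were chosen with their mean log2 ratio over the time points known, so this mean is given as a description and was not tested.

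Sestrin 2, the product of Sesn2, binds the GATOR2 complex when leucine is scarce and so keeps the growth kinase mTORC1 inactive. It also takes part in the defence against oxidants. Its gene is a known target of the stress factors ATF4, NRF2 and p53. Gadd45b encodes a small protein that binds the kinase MAP3K4, which lies upstream of the p38 and JNK kinases, and the cell cycle proteins PCNA and CDK1. It is known as an early gene of the response to TGF-beta, NF-kB and DNA damage, and in liver it rises during regeneration.

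All flasks received medium with 25 mM glucose and were followed for 96 h after the cells had become confluent. In control flasks glutamine stayed at 4 mM. Experimental flasks were given 0 mM at the start and at 48 h, and 4 mM at 24 and 72 h. Every array compared Cy5-labelled RNA of flasks with varied glutamine with Cy3-labelled RNA of control flasks. The labels number 11 time points without giving the hour or the glutamine level of any, so no time point can be assigned to withdrawal or return. Of 20 arrays, 9 time points had 2 arrays, the second marked r, and 2 had 1 array. Nothing in the labels says whether an r array came from another flask, so the spread between arrays may be technical. A positive log2 ratio likely means more RNA in flasks with varied glutamine, because that RNA is listed as channel 1. The dyes were never exchanged between arrays. A lasting dye effect on a probe therefore cannot be told apart from a lasting difference between flasks. The first array of time point 4 is labelled with glutamine-free cells in the control channel, against the design, and without it the means given below were 0.26 for Sesn2 and 0.66 for Gadd45b.

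Arrays gave between 4269 and 8269 values of 17280 probes, and their medians lay between 0.05 and 0.44 before each was centred on its median. At time points 6 and 10 the second array did not resemble its partner (r = 0.05 and -0.02 across probes). At time point 5 and on the first array of time point 6, every 20th spot by probe number, counted from the first, was raised. Results are therefore also given for a reduced set of 18 arrays, without both unlike arrays and, at time points 5 and 6, without the spots at such positions. Ratios show no level, so the hepatoma cells could be checked only by which marker spots gave values: 10 of 11 hepatocyte markers on the array did on at least 1 array, including albumin (Alb), and 0 of 4 macrophage markers did. All 6 markers of stellate cells or fibroblasts and all 4 endothelial markers on the array gave values too. In the 10 lists used below, the share with values ran from 13 of 20 NF-kB targets to 18 of 20 NRF2 targets and peroxiredoxins. The hepatocyte count therefore does not identify the cells. Of 6 hepatocyte markers tested by limma, 0 were higher in varied flasks and 2 lower, Alb (-0.56 ± 0.21, SD, n = 9 time points) and Krt8 (-0.25 ± 0.19, SD, n = 10), and the means of the other 4 ran from -0.29 (Fgb) to 0.07 (Hnf4a). Of 3 stellate or fibroblast markers 1 was higher, Col1a2 (0.19 ± 0.10, SD, n = 11), while Vim (0.35 ± 0.95) and Acta2 (0.05 ± 0.34) were not called, nor was Kdr, the 1 endothelial marker tested (0.35 ± 0.52, SD, n = 11). These calls are from all arrays, where 13.6% of all genes tested were higher and 9.05% lower. The probes of Vim and Kdr sit at raised positions. On the reduced set Kdr was higher (0.21 ± 0.17, SD, n = 9, limma adjusted p = 0.0233), and Vim had too few values to test. There 3 of 6 hepatocyte markers were lower, with Fgb (-0.27 ± 0.34, SD, n = 11, limma adjusted p = 0.0338) beside Alb and Krt8, and Col1a2 was still higher. Of all genes tested on the reduced set, 21.2% were higher and 12.2% lower. The part of these markers in the results below was not tested.

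The stretch before each transcription start is shown so that both genes can be compared by sequence. The 250 bases upstream come from RefSeq, build GRCm38.p6. Sesn2 lies on chromosome 4 from 132492804 to 132510456 and Gadd45b on chromosome 10 from 80930091 to 80932204. Capitals mark matches, on either strand, to 6 motifs, and each line runs 5′ to 3′ on the strand of the gene up to the base before its start.
Sesn2, chr4:132510457-132510706, minus strand: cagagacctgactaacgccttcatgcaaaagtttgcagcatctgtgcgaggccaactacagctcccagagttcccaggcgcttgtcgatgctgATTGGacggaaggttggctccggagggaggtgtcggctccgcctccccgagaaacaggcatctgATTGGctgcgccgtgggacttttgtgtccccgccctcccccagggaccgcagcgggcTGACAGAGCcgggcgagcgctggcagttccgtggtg
Gadd45b, chr10:80929841-80930090, plus strand: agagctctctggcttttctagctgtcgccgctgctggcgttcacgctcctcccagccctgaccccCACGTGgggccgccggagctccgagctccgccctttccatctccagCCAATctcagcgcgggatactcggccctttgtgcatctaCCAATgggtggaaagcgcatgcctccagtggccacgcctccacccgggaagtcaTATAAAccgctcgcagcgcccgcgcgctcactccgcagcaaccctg

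Both windows held 2 CCAAT boxes (CCAAT), a motif found in 33.8% of 32851 windows of the same length. Those of Sesn2 lay on the opposite strand and began 157 and 93 bases upstream. Those of Gadd45b began 139 and 100 bases upstream. Gadd45b also held a TATA box (TATAAA, 12.4% of windows) from 46 to 41 bases upstream and an E-box (CACGTG, 6.02%) from 185 to 180. Sesn2 held a match to the antioxidant response element (TGACNNNGC, 10.2%) from 36 to 28 bases upstream. Neither window held the letters TGATGNAA of the C/EBP-ATF element (3.45% of windows) or TGACGTNA of the cyclic AMP response element (2.52%). No motif overlapped another. These matches describe the letters only, and binding was not measured.

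Sesn2, the sensor upstream of mTORC1, gave a value on 19 of 20 arrays and was above the array median on 18. Its centred log2 ratio was 0.49 and 0.46 on the arrays of time point 1, 0.40 and 0.23 (time point 2), 0.35 and 0.09 (3), and 0.41 and 0.66 (4). Time point 5 gave 0.13 and time point 6 gave 0.06, each from 1 array, because the second array of the latter was blank for Sesn2. Later pairs were 0.35 and 0.23 (time point 7), 0.28 and 0.27 (8), 0.50 and 0.21 (9) and -0.27 and 0.26 (10), and the single array of time point 11 gave 0.07. The highest values thus came from time points 4, 9 and 1, and the one value below 0 came from the first array of time point 10. On the second array of that pair, the one unlike its partner, the deposited value of Sesn2, 0.31, was shared by 331 spots and was the most frequent value of the array, whereas no value on another array was shared by more than 169 spots.

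Gadd45b, the partner of MAP3K4, gave a value on 18 arrays and was above the median on each. Its centred log2 ratio was 0.72 and 0.47 on the arrays of time point 1, 0.46 and 0.42 (time point 2), 0.43 and 0.36 (3), and 0.37 and 0.50 (4). It reached 2.36 on the array of time point 5 and 0.83 on the first array of time point 6. Both arrays had raised spots, and the Gadd45b probe, number 8221, sits at such a position. The first array of time point 7 gave 0.73, and Gadd45b was blank on the second arrays of time points 6 and 7. At later time points it was 0.48 and 0.26 (8), 0.36 and 0.30 (9), 0.76 and 0.18 (10) and 0.24 (11). Apart from time points 5 and 6, the values lay in a band from 0.18 to 0.76.

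**Figure D1:**
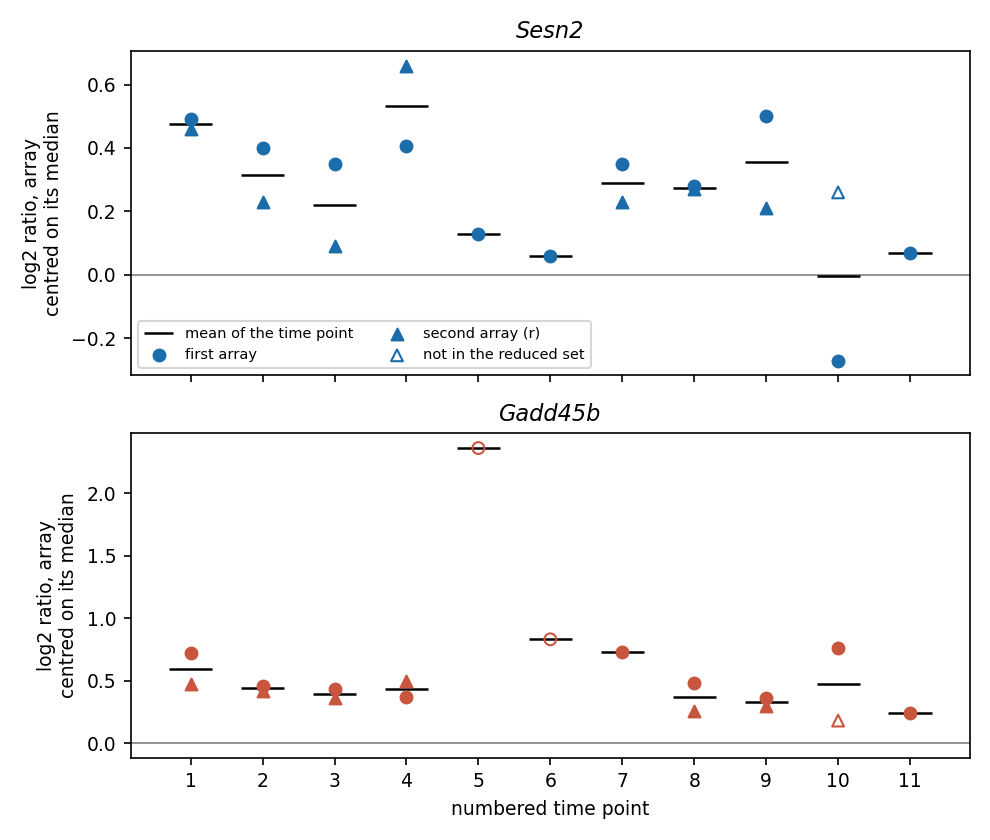
Centred log2 ratio (y axis, separate scale for each gene) of Sesn2 and Gadd45b on every array, by numbered time point (x axis). Circles are first arrays, triangles second arrays, open symbols values left out of the reduced set, and lines time-point means. Sesn2 stays above 0 on 18 of 19 arrays, and Gadd45b is above 0 on all 18 with one high value of 2.36 at time point 5.

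Over the 11 time points Sesn2 averaged 0.25 ± 0.17 (SD), a fold of 1.19, with 10 time points positive and 1 negative. Gadd45b averaged 0.65 ± 0.59 (SD, n = 11), a fold of 1.57, and was positive at all 11. The median over arrays, which a single array moves less, was 0.27 for Sesn2 and 0.45 for Gadd45b. In the reduced set the means were 0.23 ± 0.22 (SD, n = 11) and 0.48 ± 0.18 (SD, n = 9). Over the 8 time points other than 5, 6 and 10, Sesn2 lay between 0.07 and 0.53 and Gadd45b between 0.24 and 0.73. Among the 4752 genes measured at no fewer than 9 time points, Sesn2 had rank 662 by mean and Gadd45b rank 81. As background, limma called 22.6% of these genes (threshold of 0.05 on the adjusted p), 13.6% higher and 9.05% lower, and on the reduced set 33.4%, 21.2% higher and 12.2% lower. Both genes were chosen on this mean, so nothing is read from their place in it.

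The place of a spot among all spots of its array does not depend on the centring. Sesn2 stood between the percentiles 25.6 and 97.2, with a median of 82.6, and above the 90th on 6 of 19 arrays. Gadd45b stood between 61.5 and 98.8, with a median of 92.7, and above the 90th on 13 of 18. The lowest place of Gadd45b was on the second array of time point 10, and that of Sesn2 on the first. On time points 5, 6 and 11 Sesn2 was near the middle of its array, at 61.2, 55.9 and 60.2, with raised spots among those ranked at time points 5 and 6.

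**Figure D2:**
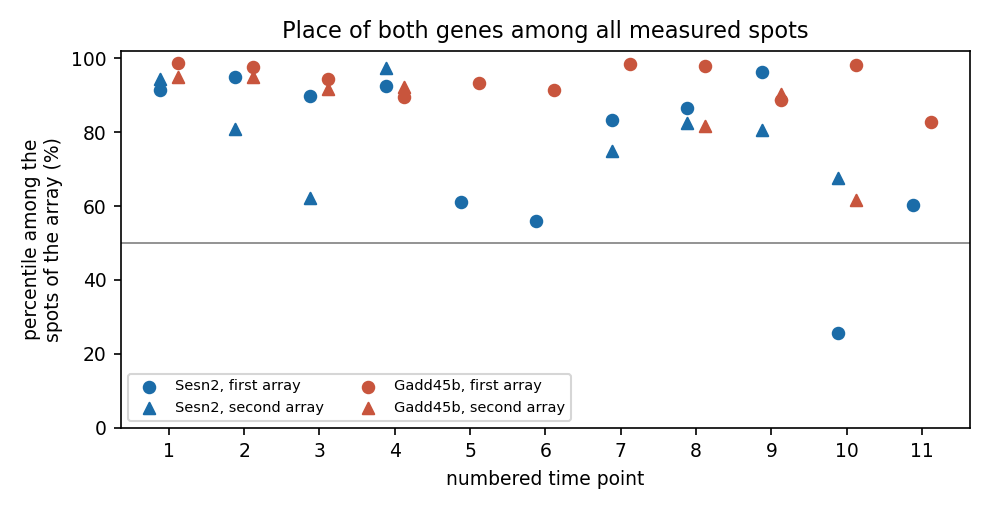
Percentile of the ratio of each gene among all spots with a value on the same array (y axis, in %), by numbered time point (x axis). Circles are first and triangles second arrays. Gadd45b lies at 81.6% or above on all arrays but the second of time point 10 (61.5%), and Sesn2 lies between 55.9% and 61.2% at time points 5, 6 and 11 and at 25.6% on the first array of time point 10. At time points 5 and 6 the Gadd45b probe is at a raised position.

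The deposited values, before centring, were above 0 on 18 of 19 arrays for Sesn2 (lowest -0.06, median 0.64, highest 1.06) and on 18 of 18 for Gadd45b (lowest 0.23, median 0.77, highest 2.52). Array medians averaged 0.26 over the time points, and uncentred means were 0.50 for Sesn2 and 0.90 for Gadd45b. Part of the deposited ratio of both genes was therefore common to the whole array. Blocks of 540 neighbouring probe numbers differed in their median. The block of Sesn2 lay between -0.09 and 0.25 on the 20 arrays and that of Gadd45b between -0.17 and 0.20. With each block centred on its own median, Sesn2 averaged 0.20 and Gadd45b 0.63.

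The raised spots bear directly on Gadd45b. The Sesn2 probe, number 13626, lies elsewhere, and they reach it only through the array median and ranks. Without them Sesn2 was at 0.18 in place of 0.13 at time point 5, and at 0.10 in place of 0.06 at time point 6. On the array of time point 5, the 601 spots at such positions had a median of 2.72, against -0.05 for the other spots. Gadd45b, at 2.36, was 0.36 below that median, and 35.4% of the raised spots were lower. On the first array of time point 6 the 477 such spots had a median of 1.28, and Gadd45b at 0.83 was 0.45 below it, with 30.6% lower. On the remaining 18 arrays the median of these positions lay between -0.10 and 0.08. Gadd45b thus stood below the median of the spots that share its kind of position on both arrays. With the raised spots centred on their own median, its mean was 0.29.

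**Figure D3:**
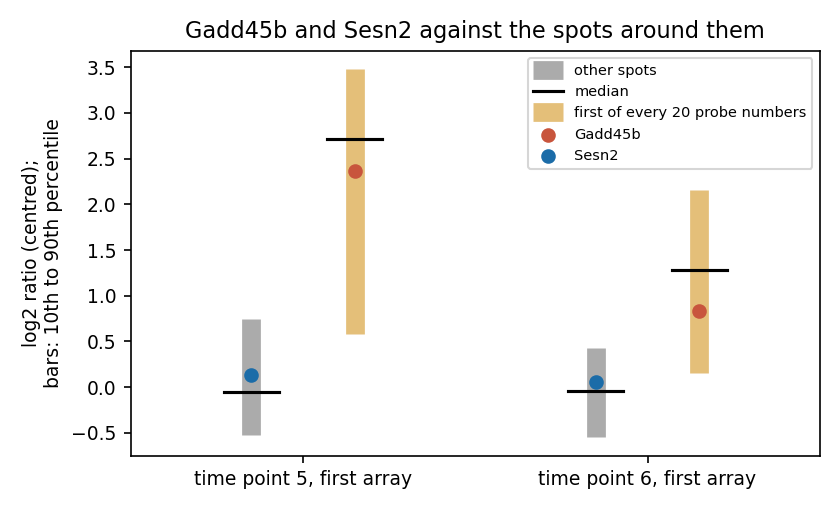
Centred log2 ratio (y axis) on the 2 arrays with raised spots, from time points 5 and 6. Bars run from the 10th to the 90th percentile of spots at raised positions and of all other spots, black lines are medians, and points are Gadd45b and Sesn2. Gadd45b lies inside the raised bar at both, below its medians of 2.72 and 1.28.

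Differences among time points were fitted across 3744 genes with values on 16 or more arrays. The fit uses the same ratios whose mean chose Sesn2 and Gadd45b, so for these genes it is not independent of the choice and is given as a description. Sesn2 was not called: by the limma F-test the adjusted p was 0.574 with all arrays and 0.204 with the reduced set. The SD between arrays of 1 time point was 0.18 with all arrays and 0.14 on the reduced set. In order of level, time point 4 (0.53) and time point 1 (0.48) came first and time points 11 (0.07), 6 (0.06) and 10 (-0.01) last. None of the 10 neighbouring pairs in this order differed by more than 2 standard errors of their difference, which sorting by level favours. The ends of the order, time points 4 and 10, lay more than 2 standard errors apart (standard error 0.19), a pair picked by its values. A p above the threshold does not show that Sesn2 was constant.

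Gadd45b was called on all arrays (limma F-test, adjusted p = 0.0174, with 7.0% of genes called). Its value at time point 5 enters both this call and the mean that chose it, which was 0.65 with that time point and 0.48 without. The order was led by time point 5 (2.36), then 6 (0.83), 7 (0.73), 1 (0.60) and 10 (0.47), and ended with time point 11 (0.24). Of the 10 neighbouring pairs only time points 5 and 6 differed by more than 2 standard errors. The call was lost without time point 5 (adjusted p = 0.717), without the raised spots (0.808) and on the reduced set (0.529, with 30.6% of genes called). Time point 5 had 1 array, so its value has no replicate. In the reduced set the means ran from 0.76 (time point 10) and 0.73 (time point 7), each on 1 array, to 0.24 (time point 11), and no neighbouring pair differed by more than 2 standard errors.

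Partner arrays of a time point differed by a median of 0.21 for Sesn2 (8 pairs, from 0.01 to 0.53) and 0.14 for Gadd45b (7 pairs, from 0.04 to 0.58). The median over 3825 genes was 0.21. The largest difference of each gene was at time point 10, and without that pair the largest was 0.29 for Sesn2, at time point 9, and 0.25 for Gadd45b, at time point 1. Where both genes had a value, Gadd45b was higher on 13 of 18 arrays and Sesn2 on 5, with a median difference of 0.13. The time-point means of Sesn2 and Gadd45b had r = -0.23 and rho = -0.18 over 11 time points, and r = -0.29 and rho = 0.02 over the 9 of the reduced set, which share arrays and normalization. The 11 include time point 5, with Gadd45b at 2.36 on a raised position and Sesn2 at 0.13. The reduced set includes 1 array of time point 10, with Gadd45b at 0.76 and Sesn2 at -0.27. No r was computed without both time points, so whether the profiles ran together is not decided here.

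The relatives of both genes were seldom measured. Sesn1 has no probe of that name here. One Sesn3 probe gave 7 values, all negative, from -0.55 to -0.19, and the other a single value of 0.31, on the unlike array of time point 6. On that same array the first probe gave -0.28, so both Sesn3 probes differed in sign there. Sesn3 encodes another sestrin that restrains mTORC1. Gadd45a, the relative best known as a p53 target, had 2 values, 0.91 on the second array of time point 1 and 1.40 at time point 5, and its probe also sits at a raised position. Gadd45g gave 3 values, -0.61, -0.21 and -0.13. None of them could be tested.

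Genes with the most similar profile were found among 2686 named genes with a value at all 11 time points. For Sesn2 they were Mlf2 (Pearson r = 0.94, rho = 0.93), Pbld2 (0.94, 0.93), Naaa, a lysosomal amidase (0.93, 0.91), and the kinase Mast1 (0.91, 0.92). Mlf2 was also first in the reduced set (0.97, 0.92), followed there by Wdr75, Sharpin and Gpx2 (r from 0.93 to 0.96). All 7 of these genes were highest at time point 1 or 4, as Sesn2 was at time point 4. On the reduced set Mlf2, Wdr75, Sharpin and Gpx2 were lowest at time point 10, between -1.05 and -0.55. Sesn2 was also lowest there (-0.27), and 1 array gave all of these values. For Gadd45b they were Srrm1 (r = 0.97, rho = 0.70), Krt19 (0.97, 0.90), Kdm5d (0.97, 0.67) and Ptprs (0.97, 0.41). All of these had their highest value at time point 5, between 2.08 and 2.96, and all but Ptprs have a probe at a raised position. Over the 9 time points of the reduced set none of these remained among the first 4, which were Syt3 (r = 0.95, rho = 0.98), the ribosomal protein Rpl4 (0.93, 0.92), Hspa4l (0.90, 0.83) and Kri1 (0.90, 0.97). Of the 2686 genes 59 exceeded 0.80 with Sesn2 and 190 with Gadd45b. On the reduced set 55 of 2272 did so with Sesn2 and 28 of 2899 with Gadd45b.

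Related genes were then read in 10 lists covering the pathways around both genes, without Sesn2 and Gadd45b. Of 202 listed genes on the array 77 had enough values to test. Of these 8 (10.4%) were higher and 6 (7.79%) lower by limma on all arrays, against 13.6% and 9.05% of all genes, and their median was 0.01 against 0.02. On the reduced set 10 of 68 were higher and 8 lower. The lists thus held no larger share of called genes than the array as a whole, and calls below hold relative to the array median.

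Among mTOR complexes, TSC, AMPK and their outputs 1 of 11 measured genes rose and 2 fell. Deptor, a protein that binds and inhibits mTOR, lay at 0.32 ± 0.14 (SD, n = 11, limma adjusted p = 0.00127) and was positive at all 11 time points, from 0.08 to 0.53. Rictor, the defining subunit of mTORC2, lay at -0.23 ± 0.22 (SD, n = 11, limma adjusted p = 0.0275), and Eif4b, a translation factor downstream of mTORC1, at -0.22 ± 0.21 (SD, n = 11, limma adjusted p = 0.0283). Without centring Rictor and Eif4b were at 0.03 each. The call of Rictor was also lost when time point 3, 7, 8 or 9 was left out (highest adjusted p = 0.0622), and that of Eif4b without 1, 3, 4, 6, 7 or 9 (0.0627). Deptor kept its call without any 1 time point. Deptor, Rictor and Eif4b were all called again on the reduced set (limma adjusted p = 0.000181, 0.0256 and 0.0181). None of 8 genes of amino acid sensing at the lysosome was called, a list that holds GATOR2, the target of sestrin 2. Its largest means were Rragd, a Rag GTPase, at -0.19 ± 0.52 (SD, n = 10, 0.08 without centring) and Itfg2, a subunit of the KICSTOR complex, at 0.17 ± 0.25 (SD, n = 11). Itfg2 was at -0.50 at time point 6, and without it the mean was 0.23 (limma adjusted p = 0.00756).

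Of 8 stress MAP kinase genes, which carry the signal that GADD45 proteins feed into, 2 rose and 1 fell. Map3k7, the kinase TAK1 of the TGF-beta and NF-kB pathways, lay at 0.36 ± 0.24 (SD, n = 11, limma adjusted p = 0.00443) and was positive at all 11 time points. Map3k5, the oxidant-sensitive kinase ASK1, lay at 0.32 ± 0.16 (SD, n = 11, limma adjusted p = 0.00165) and was positive at 10. Map2k6, which activates p38, was the lower one at -0.53 ± 0.63 (SD, n = 10, limma adjusted p = 0.0486). It reached -1.78 at time point 4, and leaving out any of time points 1, 2, 3, 4, 6, 7, 9 and 11 ended its call (highest adjusted p = 0.104). Without centring it lay at -0.26 and was not called (limma adjusted p = 0.183). On the reduced set 3 of 8 genes of this list were higher and 2 lower, against 21.2% and 12.2% of all genes. Map3k7, Map3k5 and Map2k6 were called again there (limma adjusted p = 0.00379, 0.00608 and 0.0129). Mapk9, named after its value was seen, was also higher (0.28 ± 0.28, SD, n = 10, limma adjusted p = 0.0163). The other lower gene was Jun, given below with the immediate early genes. Map3k4, the direct partner of GADD45 proteins, was measured at 9 time points and lay at -0.07 ± 0.19 (SD, limma adjusted p = 0.443). It is named here because of this role, and was picked after its value was seen.

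In the list of genes of the G2/M transition and DNA repair, where Gadd45 proteins act, 2 of 7 genes rose. These were the phosphatases Cdc25c at 0.26 ± 0.18 (SD, n = 11, limma adjusted p = 0.00782) and Cdc25a at 0.16 ± 0.16 (SD, n = 11, limma adjusted p = 0.0456). Both activate the cyclin-dependent kinases that GADD45 proteins restrain. Cdc25a lost its call without any 1 time point other than 5 or 10 (highest adjusted p = 0.0985). Cdc25c and Cdc25a were both called again on the reduced set (limma adjusted p = 0.0103 and 0.0144). The median of this list was -0.10. The binding partners PCNA and CDK1, named after their values were seen, were not called. Pcna lay at -0.15 ± 0.62 (SD, n = 9, limma adjusted p = 0.568) and Cdk1 at -0.10 ± 0.16 (SD, n = 11, limma adjusted p = 0.208). None of 5 measured p53 targets was called. The largest means were -0.20 ± 0.24 (SD, n = 10) for the nuclease Aen and -0.16 ± 0.31 (SD, n = 11) for Ei24, and both were above 0 without centring (0.07 and 0.08).

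Of 14 measured genes of the ATF4 and CHOP response, to which Sesn2 belongs, 1 rose and 3 fell. Ddit3, which encodes CHOP, rose (0.28 ± 0.32, SD, n = 11, limma adjusted p = 0.0444), a call lost without any 1 time point other than 7 or 11 (highest adjusted p = 0.0952). The bZIP factor Cebpb was negative at all 11 time points (-0.64 ± 0.41, SD, limma adjusted p = 0.00225) and remained below 0 without centring (-0.39). The bZIP repressor Jdp2 lay at -0.48 ± 0.54 (SD, n = 10, limma adjusted p = 0.0420), a call lost without time point 1, 2, 3, 4, 6, 9 or 11 (highest adjusted p = 0.0934) and without centring (-0.24, limma adjusted p = 0.151). The tRNA exporter Xpot, added to the named genes after its value was seen, lay at -0.23 ± 0.14 (SD, n = 9, limma adjusted p = 0.0160) and close to 0 without centring. On the reduced set 1 of 13 genes of this list was higher and 4 lower, against 21.2% and 12.2% of all genes. Ddit3, Cebpb, Jdp2 and Xpot were called again there (limma adjusted p = 0.0221, 0.00168, 0.00486 and 0.00740). The other lower gene was Phgdh (-0.19 ± 0.23, SD, n = 11, limma adjusted p = 0.0434), named after its value was seen.

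The lists of the other known inducers held few calls. Of 7 NRF2 targets and peroxiredoxins, Prdx2, a peroxide-removing enzyme, rose (0.19 ± 0.19, SD, n = 11, limma adjusted p = 0.0407), a call lost without any of time points 1 to 4 or 6 to 9 (highest adjusted p = 0.0801). Prdx2 was called again on the reduced set (limma adjusted p = 0.0238). Of 6 TGF-beta genes Smad4, the common partner of the SMAD factors, rose (0.20 ± 0.21, SD, n = 11, limma adjusted p = 0.0425). The call of Smad4 was lost without any 1 time point other than 10 or 11 (highest adjusted p = 0.0888) and on the reduced set (0.0660). None of 6 NF-kB targets was called on all arrays. The chemokine Cxcl1 lay at 1.07 ± 2.61 (SD, n = 11) because of 8.90 at time point 10, a mean that includes the unlike second array. The highest deposited value of that array, 16.92, was shared by 111 spots, while the first array gave Cxcl1 0.93 after centring. On the reduced set Cxcl1 lay at 0.36 ± 0.32 and rose (limma adjusted p = 0.00526). Ccl2 lay at 0.43 ± 0.94 (SD, n = 11) with 2.98 at time point 5, where its probe is at a raised position, and at 0.10 on the reduced set. None of 6 immediate early genes was called on all arrays. Fos lay at 1.02 ± 2.49 (SD, n = 11) because of 8.46 at time point 10, a mean that again includes the unlike second array. Its highest time-point mean on the reduced set, without that array, was 1.17 at time point 5. On the reduced set 1 of 4 immediate early genes rose, Fos, at 0.26 ± 0.34 (SD, n = 11, limma adjusted p = 0.0395), and 1 fell, Jun, at -0.29 ± 0.36 (SD, n = 9, limma adjusted p = 0.0425). Jun, whose probe sits at a raised position, was named after its value was seen. Myc lay at 0.45 ± 0.79 (SD, n = 10) with 2.50 at time point 5.

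**Figure D4:**
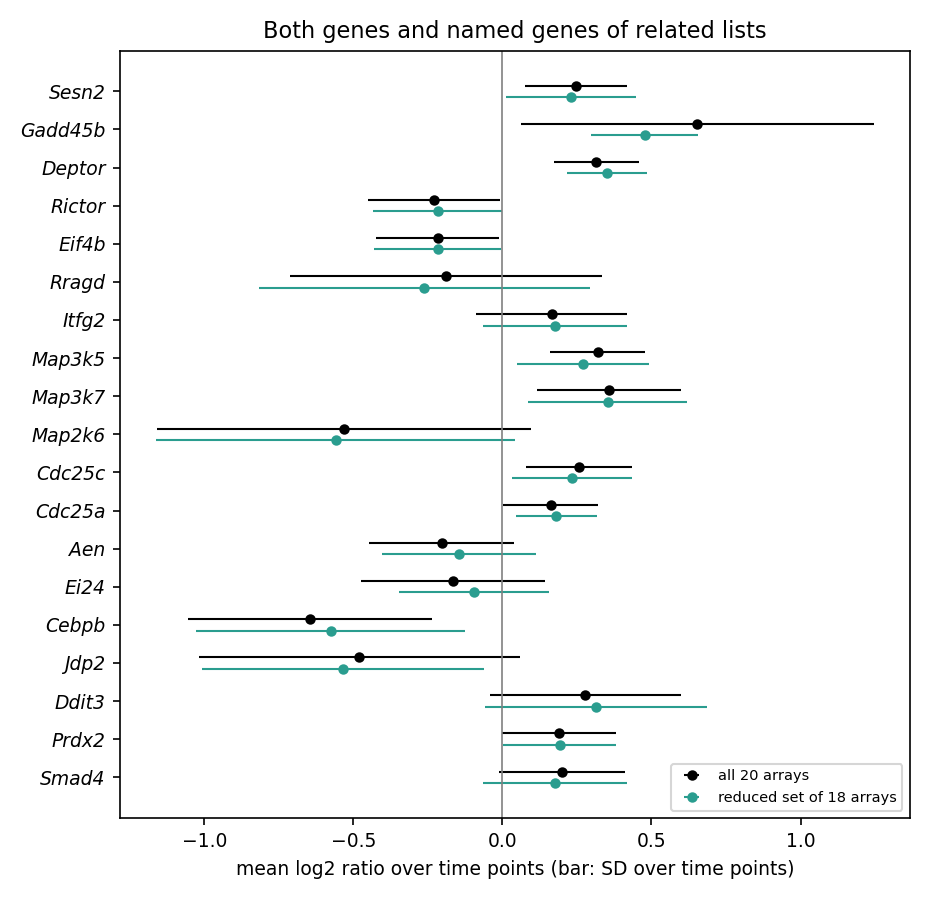
Mean log2 ratio over time points (x axis, bars are the SD over time points) of Sesn2, Gadd45b and named genes of the related lists (y axis), on all 20 arrays (black) and the reduced set of 18 (green). Deptor, Map3k5, Map3k7, Cdc25c, Cdc25a, Itfg2, Ddit3, Prdx2 and Smad4 lie above 0 with Sesn2 and Gadd45b, and Cebpb, at -0.64, is the lowest. Rictor, Eif4b, Rragd, Aen and Ei24 change sign without centring, which is not drawn.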

How the data were processed

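The deposited values are log2 ratios of both channels of 20 spotted arrays, 1 value per probe and array, per the file headers and labels. How the authors scanned, filtered or normalized the spots, the rule for blanks, the log base and the direction are not given in the sources used here; base 2 and varied over control glutamine were assumed. Each array was centred on its median. Symbols came from the platform annotation: 14718 of 17280 probes had 1 symbol, 1 had several and 2561 had none, and 14445 matched a reference gene table with 0 symbols changed. Probes of 1 symbol were averaged.

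R 4.3.3 and limma 3.58.1 were used, with Benjamini-Hochberg adjustment over all genes fitted and a threshold of 0.05. The mean of time-point means was tested against 0 in genes with 9 or more time points. That test treats time points as independent. Equality of time points was tested with a moderated F-test in genes on 16 or more arrays, lowered by 1 for each array left out. Precision is limited by how many arrays were made.

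Genes and lists were chosen with earlier results of these data known. Named are the family, up to 3 called members of each list with the largest mean (otherwise the 2 largest), and the 4 most similar profiles of each gene; exceptions are stated.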

Additional observations from a re-analysis of the deposited data

How the results depend on the processing

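The mean of Sesn2 stayed between 0.20 and 0.27 and that of Gadd45b between 0.29 and 0.70 under every alternative but one. Without centring they were 0.50 and 0.90, and limma then called 2895 genes, 2849 of them higher and 46 lower, against 646 and 430 with centring. Calls of the mean numbered 1076, against 221 among genes with a value on every array, 344 to 1061 with 1 of the array series left out, and 722 to 1175 with 1 time point left out. Calls among time points numbered 262, against 166 without the raised spots, 1366 without the second arrays of time points 6 and 10, 1230 on the reduced set, and 97 to 957 with 1 time point left out. They were 97 without time point 5, 159 without time point 7 and 957 without time point 10. The call of Gadd45b among time points was lost without the raised spots (adjusted p = 0.808), on the reduced set (0.529) and without time point 5 (0.717), and the range over time points left out was 1.98e-07 to 0.717. Settings chosen after seeing the data gave 0.160 with the raised spots centred on their own median, and 0.391 without time point 5 and both unlike arrays, where 1001 genes were called. The cause was not tested, except that the value of Gadd45b at time point 5 is at a raised position.

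The array series, marked r or not, share only this mark, and their differences at 7 time points correlated between -0.43 and 0.33. With the series as a replicate block, 1462 genes were called for the mean and 188 among time points, where Sesn2 had an adjusted p of 0.634 and Gadd45b 0.0303. Signal over background is not known here, so how dim the spots of Sesn2 and Gadd45b were could not be judged.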
